A study of Rattus norvegicus with 6 samples.

Results

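Bone morphogenetic proteins (BMPs) are secreted growth factors of the TGFβ superfamily, and 8 genes of their signaling system were followed here in cultured newborn rat ovaries, with and without connective tissue growth factor (CTGF). They are the ligands Bmp2, Bmp4, Bmp6 and Bmp7, the type I receptors Bmpr1a and Bmpr1b, the type II receptor Bmpr2 and the secreted antagonist Grem1 (gremlin 1). The members are the probe sets to which the platform annotation gives exactly 1 of these symbols, which is 8 probe sets, 1 for each gene, of 27342 on the array. All ovaries came from 0-day-old female Sprague-Dawley pups and were cultured whole for 24 h. The control group had no treatment, and the CTGF group received human CTGF at 500 ng/ml. Each group has 3 samples, each a pool of 2 to 3 ovaries of littermates from 1 culture well. The labels place 1 control and 1 CTGF sample in each of 3 organ culture date batches, and these batches are the pairs compared below.

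A BMP dimer binds type I and type II receptor kinases together, and the active type I receptor phosphorylates Smad1, Smad5 and Smad9, which enter the nucleus with Smad4. The Id genes and the inhibitory Smads, Smad6 and Smad7, are well known targets of this signal. Antagonists such as gremlin, noggin and the chordins bind the ligands outside the cell. In the ovary BMPs act on germ cells and follicles, and the oocyte itself makes the related ligands Gdf9 and Bmp15.

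The deposited values are log2 signals, and a signal was called above background when its mean over the 6 arrays was higher than the 95th percentile of 42 probe sets of genes of other organs (log2 signal 5.67), such as pancreas, lens and lung, taken as silent in the ovary. Of all probe sets, 52.0% lay above this level. The array medians lay between 5.82 and 5.84. The tissue label was checked with germ cell and somatic markers. All 7 measured oocyte and germ cell markers, all 6 pregranulosa and all 8 stromal cell markers were above background, with mean log2 control signals of 9.35 for Ddx4, a germ cell RNA helicase, and 7.23 for Nr2f2, a stromal nuclear receptor. Foxl2 and Pecam1, also chosen for this check, had no probe set with a single symbol. The arrays measure whole organs, in which fewer cells of a type and less RNA per cell cannot be told apart.

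The type I and type II receptors were above background, and for Bmpr1a and Bmpr2 the control and CTGF arrays lay close together. Bmpr1a, a type I receptor kinase of broad expression, had log2 signals of 10.30, 10.37 and 10.27 in the control arrays of batches 1, 2 and 3, and of 10.31, 10.24 and 10.34 in the CTGF arrays. The groups overlapped, and the highest and the lowest array both belonged to batch 2. In the deposited values the mean of each pair of arrays is the same in every batch. The batch with the largest difference therefore always holds both extremes. On the fold scale CTGF was 0.989 times control, with a 95% interval of 0.878 to 1.11. Bmpr2, the type II receptor, had control signals of 9.69, 9.62 and 9.60 and CTGF signals of 9.63, 9.70 and 9.72 on the log2 scale. It was lower with CTGF in batch 1 and higher in the other batches, at 1.03 times control (95% interval 0.919 to 1.16). The intervals from limma, which shares the spread between probe sets, leave out a difference of 1.2-fold in either direction for both receptors. Those of the methods' 2-way test, which does not share it, were wider, from 0.828 to 1.18 times control for Bmpr1a and from 0.878 to 1.22 for Bmpr2, and do not leave it out.

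Bmpr1b, a type I receptor that granulosa cells and oocytes use, had differences that varied more between batches. Its control signals were 6.71, 6.67 and 6.93, and its CTGF signals were 6.83, 6.87 and 6.61 on the log2 scale. The control array of batch 3 was the highest of the 6 and the CTGF array of batch 3 the lowest. This follows from the equal pair means, since batch 3 had the largest difference. The differences of 0.12, 0.20 and -0.32 in the 3 batches cancelled to a mean of 0.00 with a standard error of 0.11, the highest standard error of the 8 genes. The limma interval, from 0.83 to 1.21 times control, was the widest of the receptors. By the methods' 2-way test it was wider still, from 0.62 to 1.62 times control.

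**Figure D1:**
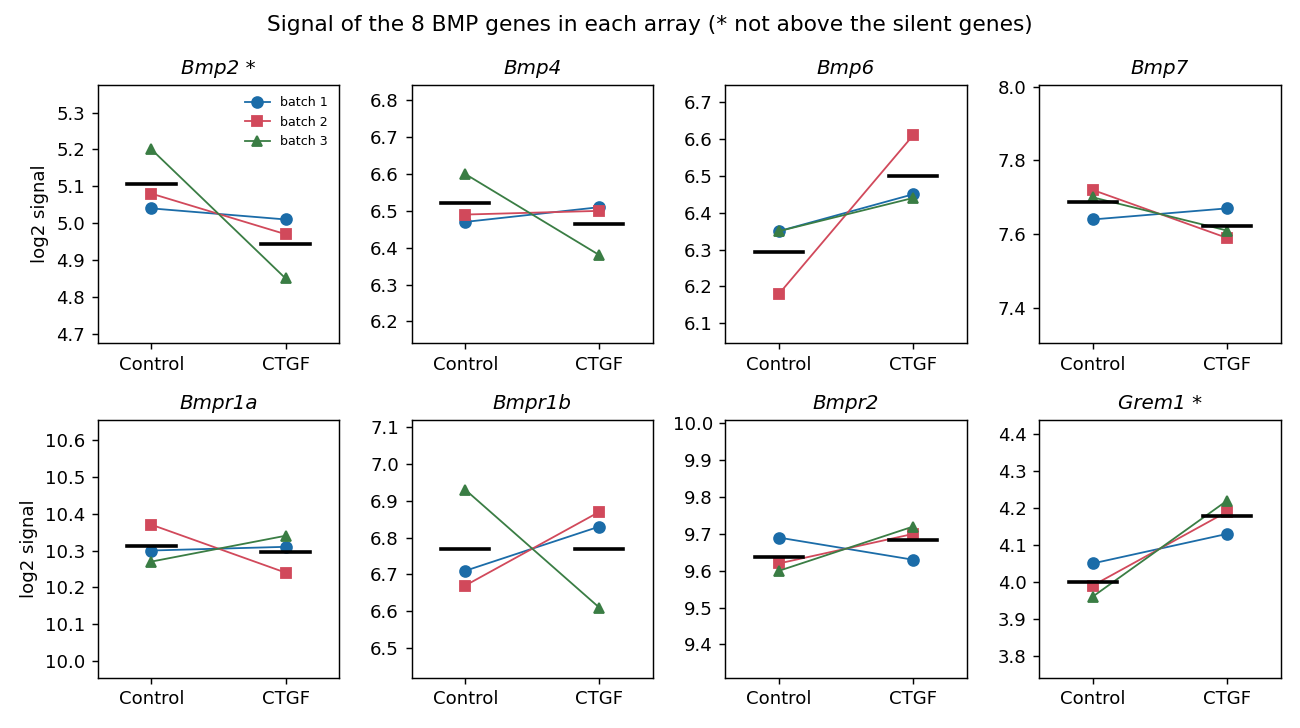
Log2 signal (vertical axis) of the 8 genes in control and CTGF arrays (horizontal axis), with the arrays of each culture batch joined by a line and group means as black bars. Each panel spans the same 0.7 log2 units around its own mean, and the control and CTGF arrays do not overlap in the panels of Bmp2, Bmp6 and Grem1. Asterisks mark the genes that were not above background.

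Of the ligands, Bmp6 had the largest difference. Its log2 signals were 6.35, 6.18 and 6.35 in control arrays and 6.45, 6.61 and 6.44 in CTGF arrays. All CTGF arrays lay above all control arrays. Batch 2, which had the largest difference, therefore held both the lowest control and the highest CTGF array. Un-logged, its mean signal was 78.6 ± 5.24 without and 90.6 ± 6.10 with CTGF (SD, n = 3 for both). Since the mean of each pair is the same in every batch, these SDs and those below reflect the 3 paired differences, not separate pools. The mean log2 difference was 0.21 with a standard error of 0.09, or 1.15 times control with a 95% interval of 0.994 to 1.34, and it did not pass (limma, adjusted p = 0.994 over all probe sets). In batch 2 the log2 difference was 0.43, and in batches 1 and 3 it was 0.10 and 0.09. Without batch 2 the mean was 0.10, against 0.21 over all batches.

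Bmp7, a ligand of epithelia and mesenchyme, had control signals of 7.64, 7.72 and 7.70 and CTGF signals of 7.67, 7.59 and 7.61 on the log2 scale. The groups overlapped through batch 1. The ratio to control was 0.957 (95% interval 0.854 to 1.07). Bmp4, a ligand that germ cells need for their specification, had control signals of 6.47, 6.49 and 6.60 and CTGF signals of 6.51, 6.5 and 6.38. Its groups overlapped as well, and batch 3 alone was lower with CTGF. Bmp4 was at 0.962 times control (95% interval 0.844 to 1.10). Without batch 3 its mean log2 difference changed sign, from -0.06 to 0.03.

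Bmp2 and Grem1 were not above background, so that their differences are differences between signals in the range of silent genes. Bmp2, a close relative of Bmp4, had control signals of 5.04, 5.08 and 5.20 and CTGF signals of 5.01, 4.97 and 4.85 on the log2 scale. All CTGF arrays lay below all control arrays, although the differences ranged from -0.03 in batch 1 to -0.35 in batch 3. The mean was -0.16 with a standard error of 0.08 (limma, adjusted p = 0.994). Without batch 3 the mean was -0.07.

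Grem1, which binds BMP2 and BMP4 and keeps them from their receptors, had control signals of 4.05, 3.99 and 3.96 and CTGF signals of 4.13, 4.19 and 4.22. These signals lay below the median of the silent genes (4.71). Within this low range the CTGF arrays were all higher than the control arrays, by 0.08, 0.20 and 0.26 in the 3 batches. The mean log2 difference was 0.18 with a standard error of 0.07, or 1.13 times control (95% interval 1.01 to 1.27), and the un-logged means were 16.0 and 18.1. The unadjusted p in limma was 0.0390, and the adjusted p 0.994. By the methods' 2-way test, which does not share the spread between probe sets, the unadjusted p was 0.0766.

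After adjustment 0 of the 8 genes passed in limma, as did 0% of all probe sets, and the methods' 2-way test passed 0 as well. At an unadjusted p under 0.05 limma called 1 of the 8, Grem1, against 3.35% of all probe sets. At the criteria of the study (a ratio of means above 1.2 or below 0.83, means that differ by more than 10 before the log, and an unadjusted p under 0.05) it called 0 of 8, against 0.435% of all. The gene list that the study printed also holds genes whose means differ by less than 10, so that these criteria do not describe it fully. The control and CTGF arrays did not overlap for 3 of the 8, against 20.3% of all probe sets. In these values, where the mean of each pair of arrays is the same in every batch, groups that do not overlap and differences of the same sign in all batches are the same condition. The median log2 difference of the 8 genes was -0.01, and that of all probe sets 0.00. Over the 6 genes above background the 95% intervals in limma reached from 0.83 times control, for Bmpr1b, to 1.34 times control, for Bmp6. Those of the methods' 2-way test were wider, from 0.62 to 1.62 times control for Bmpr1b and from 0.827 to 1.61 for Bmp6.

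**Figure D2:**
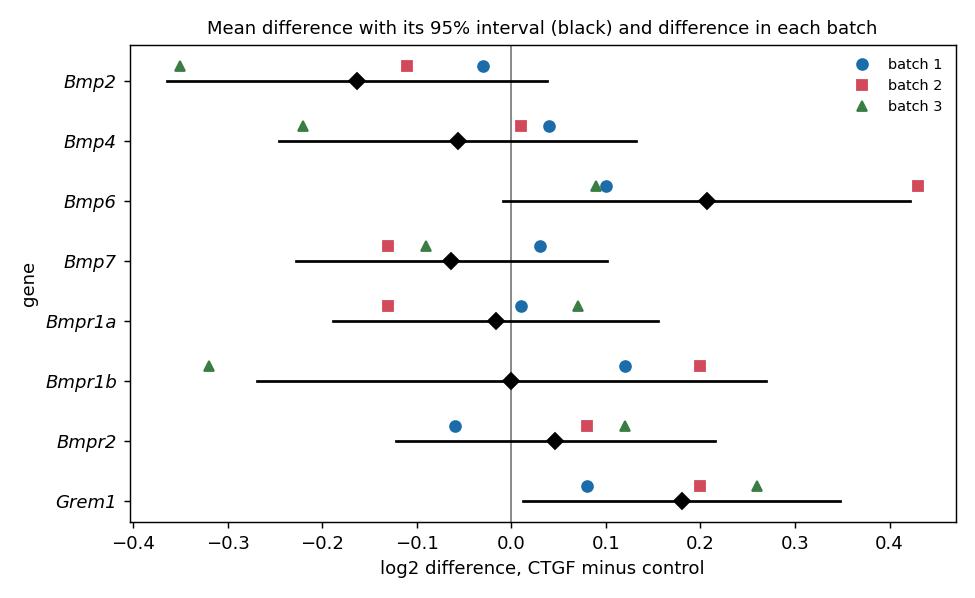
Log2 difference, CTGF minus control (horizontal axis), of the 8 genes (vertical axis), as the mean of 3 batches (black diamond) with its 95% interval from limma (line) and the difference in each batch (coloured symbols). The interval of Grem1 alone, from 0.01 to 0.35, leaves out 0. Batch 3 is the lowest for Bmp2, Bmp4, Bmp6 and Bmpr1b, and the highest for Bmpr1a, Bmpr2 and Grem1.

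Among 8966 probe sets with 1 symbol above background, those whose 3 batch differences lay nearest to the differences of Grem1 were Zfp36, Fam81a and Dennd11, at Euclidean distances of 0.02, 0.03 and 0.05 log2 units. This likeness rests on 3 numbers.

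The other genes of the pathway were taken as 5 lists with 62 genes in all, of which 50 had a probe set. At an unadjusted p under 0.05 limma called 2 of the 50, or 4%, against 3.35% of all probe sets, and 0 passed after adjustment. Of the 50, 21 were above and 28 below control, and 1 did not differ. Their median log2 difference was -0.01.

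Among 10 other ligands, 3 were above background. Gdf9 and Bmp15, the ligands made by oocytes, had log2 differences of 0.03 (standard error 0.08) and -0.05 (standard error 0.07). Bmp3, a ligand that counteracts other BMPs, had un-logged signals of 95.2 ± 19.4 without and 108.1 ± 22.0 with CTGF (SD, n = 3 for both). These SDs reflect its paired differences of 0.77, -0.41 and 0.19 in the 3 batches, the widest of this list. Bmp10, Gdf3 and Gdf6 were not above background and lay within 0.07 of control. No ligand of the list had an unadjusted p under 0.05.

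Of 6 other receptors and coreceptors, 3 were above background. Acvr2a, a type II receptor shared by BMPs and activins, had log2 differences of 0.02, 0.16 and 0.04, and Acvr1, a type I receptor, differences of -0.18, 0.13 and -0.15. Rgma, a coreceptor, had a mean of -0.07 (standard error 0.07). Hjv, the coreceptor of iron control in the liver, was not above background, and its mean of 0.13 came from batch 3 with 0.34.

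The 14 other antagonists and modulators held the 3 lowest mean differences of the pathway, and none of these genes was above background. Chrdl2, a chordin-like antagonist, had un-logged signals of 17.3 ± 0.483 without and 15.2 ± 0.428 with CTGF (SD, n = 3 for both). These SDs reflect the paired differences and not the spread between pools. The log2 difference was -0.19 with a standard error of 0.07 (limma, unadjusted p = 0.0316, adjusted p = 0.994), and it was lower in all batches. Nog, which encodes noggin, also had a mean of -0.19, but from batch 1 with -0.54, beside 0.02 and -0.04 in the others. Sostdc1, an antagonist of BMP and WNT ligands, had -0.69 in batch 3 and 0.07 in both of the others. Tll1, a protease that cleaves chordin, had differences of 0.13, 0.16 and 0.06, and was not above background either. Follistatin (Fst), which was well above background, had a mean of -0.06 (standard error 0.11).

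Of 10 Smads and intracellular modulators, 8 were above background, and 0 had an unadjusted p under 0.05 in limma. Smad4, the common partner, was at -0.02 (standard error 0.06) and Smad1 and Smad5, which BMP receptors phosphorylate, both at -0.07 (standard errors 0.07 and 0.06). Smad9, the other Smad of this kind, was not above background and had log2 differences of -0.24, -0.59 and 0.51 in the 3 batches, with a mean of -0.11 (standard error 0.19). Smurf1, a ubiquitin ligase for these Smads, was at -0.09 (standard error 0.08), and Tob1, which represses BMP Smads, at 0.09 (standard error 0.09).

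**Figure D3:**
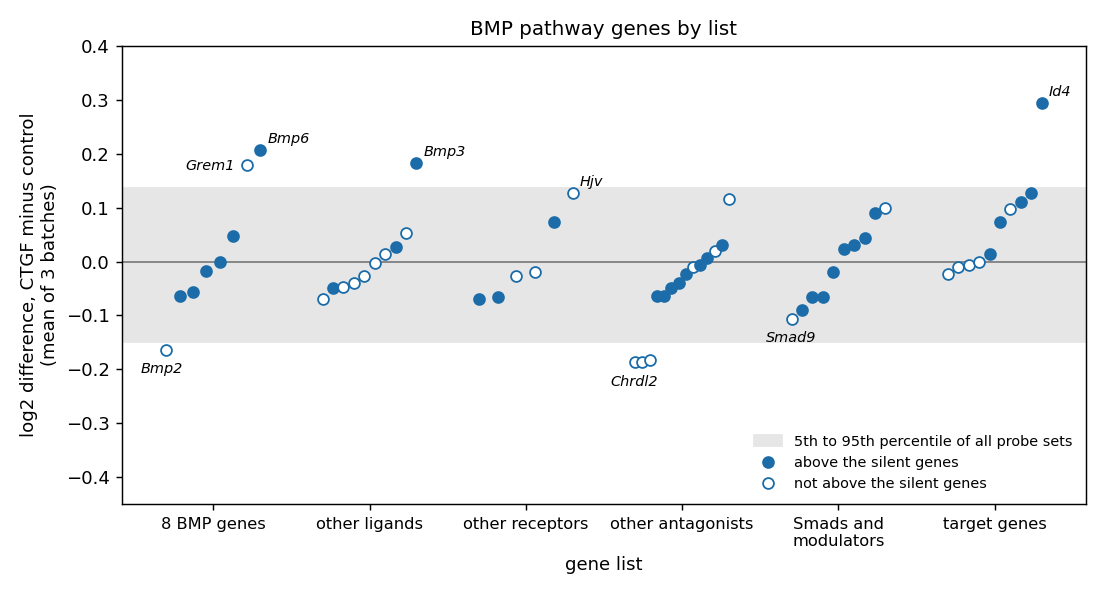
Mean log2 difference, CTGF minus control, of 3 batches (vertical axis) for each gene of the 8 BMP genes and of 5 other pathway lists (horizontal axis), in rank order within a list. Filled points are genes with a mean log2 signal above the 95th percentile of the silent genes, open points those that were not, and the grey band holds the 5th to 95th percentile of all probe sets, from -0.15 to 0.14. Id4 has the highest value, 0.29, and the lowest values among the antagonists are open points.

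Of 10 target genes, 6 were above and 3 below control, with 5 above background. Id4, a partner that blocks basic helix-loop-helix factors, was the gene of the pathway with the smallest p in limma (unadjusted p = 0.00307, adjusted p = 0.994). The mean log2 signal of Id4 over the 6 arrays, 5.88, lay only a little above the background level of 5.67. Its un-logged signals were 53.1 ± 0.368 without and 65.0 ± 0.519 with CTGF (SD, n = 3 for both), with log2 differences of 0.27, 0.30 and 0.31. These SDs reflect how alike the paired differences were, and not the spread between pools. Id4 is on the list that the study chose on these samples, which is not independent evidence. The other Id genes had wider differences, 0.03, 0.01 and 0.29 for Id2, -0.19, 0.19 and 0.38 for Id3 and -0.24, -0.04 and 0.32 for Id1. Hey1, a transcriptional repressor, had a mean of 0.10 (standard error 0.07) and was not above background.

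The promoters of Grem1 and Id4, the genes at the smallest p among the members and the targets, and that of Id1, a gene with opposite signs in batches 1 and 3, are given here as RefSeq holds them, from 250 bases before to 50 after the transcription start. Capitals mark the letters GGCGCC, a GC-rich element that BMP Smads bind. They also mark GTCT or its reverse complement AGAC, the core of the Smad-binding element. Both motifs were searched on both strands. The motifs do not overlap each other. Of all 33469 promoters of this length, 11% hold GGCGCC and 88.8% GTCT or AGAC.
Grem1 (GRCr8 chr3:120978270-120978569, minus strand): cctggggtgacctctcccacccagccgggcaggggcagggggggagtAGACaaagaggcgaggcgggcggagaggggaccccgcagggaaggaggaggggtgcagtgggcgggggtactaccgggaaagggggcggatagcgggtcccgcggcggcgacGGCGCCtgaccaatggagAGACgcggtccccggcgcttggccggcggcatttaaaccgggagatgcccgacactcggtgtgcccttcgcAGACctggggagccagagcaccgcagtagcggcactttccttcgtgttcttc
Id4 (GRCr8 chr17:16598244-16598543, minus strand): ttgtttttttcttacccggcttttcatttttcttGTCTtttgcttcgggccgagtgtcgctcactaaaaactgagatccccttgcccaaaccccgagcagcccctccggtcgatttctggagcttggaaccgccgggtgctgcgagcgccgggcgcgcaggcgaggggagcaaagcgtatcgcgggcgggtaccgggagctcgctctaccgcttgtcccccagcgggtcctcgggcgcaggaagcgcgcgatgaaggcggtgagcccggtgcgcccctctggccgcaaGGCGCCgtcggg
Id1 (GRCr8 chr3:161671314-161671613, plus strand): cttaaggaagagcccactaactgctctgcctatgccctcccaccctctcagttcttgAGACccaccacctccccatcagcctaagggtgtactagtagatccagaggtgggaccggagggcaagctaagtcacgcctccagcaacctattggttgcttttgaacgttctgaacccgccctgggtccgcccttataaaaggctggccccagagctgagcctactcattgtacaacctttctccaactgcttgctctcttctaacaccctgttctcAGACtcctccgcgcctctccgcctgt
GGCGCC occurred once in the windows of Grem1 and Id4 and not in those of Id1, Id2 and Id3. The windows of Grem1 and Id4 held 28 and 35 CG, against a median of 7 over all promoters. Those of Id1, Id2 and Id3 held 8, 24 and 20. The share of 11% was not taken over windows as rich in CG as these. The window of Id3 held neither GTCT nor AGAC. The table of RefSeq promoters holds 5 of the 8 members. Bmp4, Bmp6, Bmpr1a and Bmpr2 had no GGCGCC in their windows, and Bmpr2 neither GTCT nor AGAC. The transcription starts used for Bmp4, Bmp6 and Bmpr2 lie 11212, 110297 and 874 bases inside the annotated span of the gene. Other starts of these genes were therefore not searched. A match of letters is a description of the window and not a measured site.

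Of the 50 pathway genes, 8 had control and CTGF arrays that did not overlap, or 16%, against 20.3% of all probe sets, and the others did not have the same sign in all batches. Id1, Id3, Smad6 and Smad7, picked after their values were seen, were each lower with CTGF in batch 1 and higher in batch 3. For Smad6 the log2 differences were -0.21, 0.01 and 0.29 in the 3 batches, and for Smad7, which was not above background, -0.19, 0.14 and 0.35. In batch 3 Bmp4, Bmp7 and Bmpr1b had differences of -0.22, -0.09 and -0.32, and Bmpr1a, Bmp6 and Bmpr2 of 0.07, 0.09 and 0.12. Bmp2 and Grem1, which were not above background, were at -0.35 and 0.26 there. Of the targets, Id1, Id2, Id3 and Id4 were between 0.29 and 0.38 in batch 3 and the others between -0.08 and 0.09. Of the 8 BMP genes, 6 were higher with CTGF in batch 1, 5 in batch 2 and 4 in batch 3, where 48.1%, 45.8% and 49.7% of all probe sets were higher.

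The paired differences of cell type markers also varied from batch to batch. Each batch holds a single pair of pools, so that variation between pools and between batches cannot be told apart. All 8 stromal markers were higher with CTGF in batch 1 and all 8 lower in batch 3, with median log2 differences of 0.16 and -0.42. In batch 2, 4 were higher and 3 lower. The summed un-logged signal of the 8 lay between 6650 and 8238 in control arrays and between 6037 and 7443 in CTGF arrays, and each of the 8 was above background. Since pair means are the same in every batch, the ranges of this sum and of those below reflect the paired differences, not separate pools. In batch 3 Pdgfra, a receptor of stromal cells, differed by -1.03 and Lum, a matrix proteoglycan, by -1.08. The 7 oocyte markers had medians of 0.12, 0.08 and 0.23 in the 3 batches, with summed signals of 4644 to 5109 in control and 4898 to 5374 in CTGF arrays. One of them, the receptor Kit, had an unadjusted p under 0.05, with 0.12, 0.15 and 0.31. The 6 pregranulosa markers had medians of -0.07, 0.16 and -0.03. Of 7 leukocyte markers, 6 were above background. In limma 2 of the 7 had an unadjusted p under 0.05, against 3.35% of all probe sets. Both were lower with CTGF, and both had an adjusted p of 0.994. Cpa3, a mast cell protease, had log2 differences of -0.14, -0.80 and -1.52 in the 3 batches (unadjusted p = 0.0121), and C1qa, a complement component of macrophages, -0.23, -0.03 and -0.36 (unadjusted p = 0.0451). The summed signal of the 7 was 1489 to 1608 in control and 1345 to 1392 in CTGF arrays. Most of this gap came from Cpa3 alone, with mean signals of 341.9 in control and 193.6 in CTGF arrays. Cd14, the brightest of the 7, had 863.4 and 859.4. Of the 7, 2 had a mean log2 difference above 0 and 5 below. No marker of the pregranulosa, stromal, surface epithelium, endothelial, smooth muscle or rete lists had an unadjusted p under 0.05. The part of these shifts in the differences of Bmp2, Bmp4, Bmpr1b and the Id genes was not tested.

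**Figure D4:**
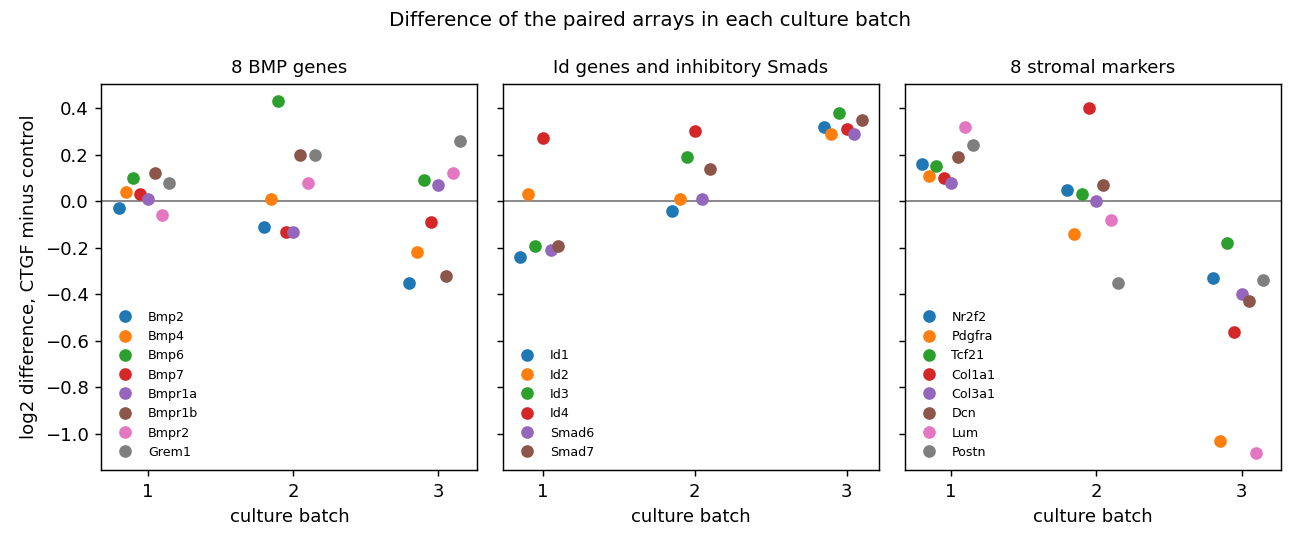
Log2 difference of the paired arrays, CTGF minus control (vertical axis), in culture batches 1 to 3 (horizontal axis) for the 8 BMP genes, for 4 Id genes with the inhibitory Smads, and for 8 stromal markers, 1 point a gene. In batch 3 all 8 stromal markers lie below 0 and all Id genes and inhibitory Smads above 0.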

How the data were processed

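Transcripts were measured on Affymetrix rat gene arrays in 3 control and 3 CTGF samples, grouped by their labels. The authors deposited log2 values, 1 for each probe set, made with RMA in Partek and adjusted for GC content per the methods. The file had 0 value columns that belong to no sample. Batch differences were no longer in it: in each batch the control and CTGF arrays of a probe set had the same mean, to within 0.005. Deviations of same-numbered arrays therefore correlated near -1 (-0.9988 to -0.9991), and a group's SD depends on the 3 paired differences alone. The labels give the pairing by batch, and the methods block for it.

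limma 3.58.1 (R 4.3.3) was fitted to all 27342 probe sets with batch as a block (2 residual and 4.22 prior degrees of freedom), without a filter, and p-values were adjusted by Benjamini-Hochberg over all of them. The annotation gave 1 symbol to 15097 probe sets, several to 323 and none to 11922, and Entrez numbers linked 15067 to RefSeq genes. For a gene with several probe sets the brightest one was used. Of 47 silent genes 40 had a probe set. The members and all lists were chosen with earlier results of these data known. Named were the members, up to 4 genes with the smallest p in each pathway list, the 3 nearest to Grem1, and markers. Gdf9, Bmp15, Fst, Smad1, Smad4, Smad6, Smad9, Id1, Kit, Cpa3, C1qa, Pdgfra and Lum were added after their values were seen. The fit was tested on simulated data, a check that set no minimum for the recovery of small changes such as those of the members. Alternatives were no batch term, quantile normalization, centred medians, a filter on signal, trend and robust moderation, the methods' 2-way test, the study's criteria with no minimum difference, and each replicate left out.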

Additional observations from a re-analysis of the deposited data

How the results depend on the processing

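No alternative brought a member past an adjusted p of 0.05, and the lowest adjusted p of any member was 0.115, for Grem1 with no replicate block, a fit that counts residual degrees of freedom which the removal of batch differences had already used. With no replicate block, unadjusted p under 0.05 was reached by 4415 probe sets instead of 915, by 3 members (Bmp2, Bmp6 and Grem1) instead of 1 and by 4 pathway genes instead of 2. The pairing by replicate number changed no log2 difference. Quantile normalization and centred medians each gave 2 members, Bmp6 and Grem1. With the filter on signal, which leaves out Bmp2 and Grem1, the counts were 403 probe sets, 0 members and 1 pathway gene. By the methods' 2-way test 0 members and 1 pathway gene were called, and 30 probe sets instead of 119 met the study's criteria. With 1 replicate left out the last count was 185 to 273, the members called 0 to 1 (Grem1 was lost without replicate 2 and without replicate 3) and the pathway genes called 1 to 2.

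Among the members and the named pathway genes, signs changed only with a replicate left out. The range was -0.11 to 0.03 for Bmp4 (0.025 without replicate 3), -0.06 to 0.04 for Bmpr1a (0.04 without replicate 2), -0.11 to 0.48 for Bmp3 (-0.11 without replicate 1), -0.31 to 0.07 for Sostdc1 (0.07 without replicate 3), -0.025 to 0.245 for Smad7, -0.09 to 0.02 for Bmp15, -0.10 to 0.15 for Smad6 and -0.14 to 0.14 for Id1 (all 4 at the opposite sign without replicate 3), -0.415 to 0.135 for Smad9 (0.135 without replicate 2), -0.16 to 0.085 for Fst (0.085 without replicate 1) and -0.03 to 0.10 for Gdf9 (-0.03 without replicate 2). For Bmpr1b, with a mean of 0.00, it was -0.10 to 0.16. Bmp2 stayed between -0.23 and -0.07, Bmp6 between 0.10 and 0.27, Bmp7 between -0.11 and -0.03, Bmpr2 between 0.01 and 0.10 and Grem1 between 0.14 and 0.23. Of the markers, Cpa3 stayed between -1.16 and -0.47, C1qa between -0.295 and -0.13 and Kit between 0.135 and 0.23, but with 1 replicate left out Cpa3 passed an unadjusted p of 0.05 only without replicate 1, C1qa only without replicate 2 and Kit in no case, and by the methods' 2-way test their p was 0.176, 0.164 and 0.0818. The cause of these shifts was not tested. Signal over background limits what can be said of Bmp2 and Grem1, and 3 pairs of arrays limit all intervals.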
